A study of Rattus norvegicus with 48 samples.

Results

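Tazemetostat and 4-octyl itaconate (4OI) were compared as treatments of the same injury, in rat cortical cultures that had received the HIV protein Tat and cocaine. The 6 libraries of these cultures, 3 with each compound, were chosen by their group labels from 48 libraries in 16 groups of 3, and all genes of the table were considered, of which 15890 of 30211 were tested. The cultures were primary mixed cortical cultures of fetal Sprague-Dawley rats. Both groups had Tat at 6 ng/mL for 48 h and cocaine at 25 µM for 24 h. The Tat-Cocaine-Tazemetostat group also had tazemetostat at 3 µM for 48 h, and the Tat-Cocaine-4OI group 4OI at 250 µM for 48 h. The 2 compounds are unrelated and were each given at 1 concentration, so the comparison is between treatments and not between matched doses. Further groups served as references: Control (no addition), Tat-Cocaine (Tat and cocaine with no compound), Tat-Tazemetostat and Tat-4OI (Tat and compound, no cocaine), and Tazemetostat and 4OI (compound with neither Tat nor cocaine). The labels do not say whether libraries of a group came from separate litters or dissections, so the p-values measure the spread between these samples, which may be technical.

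Tazemetostat inhibits EZH2, the catalytic subunit of Polycomb repressive complex 2 (PRC2), which methylates histone H3 at lysine 27 and holds developmental and cell-type genes silent. 4OI is an ester of itaconate that crosses membranes. Itaconate is made from a tricarboxylic acid (TCA) cycle intermediate by Acod1 in activated macrophages and microglia, and 4OI is known to alkylate Keap1 and thereby release Nrf2, the transcription factor that binds antioxidant response elements. Microglia are the resident macrophages of the brain and answer Tat with cytokines, chemokines and interferon-stimulated genes.

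The sequences below are from members of the Nrf2 and interferon lists that were called between the compounds and whose promoters held a match. Members that were not called are not shown. The windows were limited to a few genes per list, of lowest FDR, with a single promoter and a match wholly before the start. Other called members with a match, such as Txnrd1, Gsta1 and Rsad2, are therefore not shown. They are stretches of 60 bases from the rat promoters of RefSeq (build GRCr8, another build than the one the reads were aligned to), read 5′ to 3′ on the strand of the gene. Capitals mark the core of the antioxidant response element, TGACNNNGC, in either orientation. These letters can also hold an AP-1 site.
Gclm, chr2:213031938-213031997, plus strand: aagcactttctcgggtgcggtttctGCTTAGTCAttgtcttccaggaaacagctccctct
Gstp1, chr1:210769732-210769791, minus strand: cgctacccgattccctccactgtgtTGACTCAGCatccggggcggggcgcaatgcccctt
Me1, chr8:96540377-96540436, minus strand: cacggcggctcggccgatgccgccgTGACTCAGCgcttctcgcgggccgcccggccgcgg
Capitals here mark the first match per window to the core of the interferon-stimulated response element, GAAA repeated after any 2 bases, in either orientation. A further match in Oas1a overlaps it, at -35 bases from the start, and its end is in lower case.
Oas1a, chr12:41330400-41330459, plus strand: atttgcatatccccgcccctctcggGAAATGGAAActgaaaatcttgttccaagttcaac
Ifih1, chr3:67683993-67684052, minus strand: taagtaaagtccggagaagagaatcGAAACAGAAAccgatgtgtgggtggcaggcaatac
Irf7, chr1:205800058-205800117, minus strand: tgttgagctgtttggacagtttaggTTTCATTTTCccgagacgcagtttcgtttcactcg
Ifit3, chr1:241527257-241527316, plus strand: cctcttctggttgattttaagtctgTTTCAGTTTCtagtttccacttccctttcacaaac
Gclm, Gstp1 and Me1 encode a subunit of the enzyme that limits glutathione synthesis, a glutathione transferase and malic enzyme. Oas1a, Ifih1, Irf7 and Ifit3 encode a sensor enzyme for double-stranded RNA, the receptor MDA5, the factor that amplifies type I interferon, and an antiviral effector. Over promoters of 300 bases (250 before and 50 after the start), both strands searched, TGACNNNGC was present in 12.1% of all 33469 promoters and in 7 of 17 Nrf2 targets with a promoter in the table (41.2%). The interferon element was present in 3.92% of all promoters, in 10 of 17 interferon genes (58.8%) and in 0 of 17 Nrf2 targets. Of the tested genes 11225 had a promoter in the table, and 3.2% of these held the interferon element, against 5.84% of the genes called higher with tazemetostat (96 of 1645) and 1.96% of those called higher with 4OI (24 of 1226). The shares for TGACNNNGC were 15.4%, 15.1% and 16.5%, and so differed little. Among the 7 Nrf2 targets that held it were Prdx1 and Ugdh, which were not called between the compounds. A match is a description of the letters and not a site of binding.

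The 6 libraries held 17.6 to 21.9 M reads on genes, so that the lowest level used for testing, 0.5 CPM (reads per 1000000 reads, as scaled by the authors), stood for 8.58 to 10.7 reads. 1 library stood apart. Replicate 2 of Tat-Cocaine-4OI correlated with the other libraries of its group at 0.963 and 0.978 on the log2 scale across genes, and with the tazemetostat libraries at 0.979 to 0.985. The other 4OI libraries correlated with each other at 0.993 and with the tazemetostat libraries at 0.921 to 0.969. Results are therefore given with all libraries and, where they rest on it, without that library. The labels name the cells neurons, but the markers showed a mixed culture. Summed markers of astrocytes reached 6253 to 13950 CPM and those of neurons 1333 to 4017 CPM in these 6 libraries, whereas summed endothelial markers were 3.42 to 7.52 CPM.

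Markers of myeloid cells differed between the treatments. The summed level of 13 myeloid markers (among them Aif1, Csf1r, Cd68 and Spi1) was 5495, 8044 and 4584 CPM with tazemetostat and 811, 3259 and 1248 CPM with 4OI, against 2808, 1909 and 4126 CPM in Tat-Cocaine cultures. All tazemetostat libraries lay above all 4OI libraries, and replicate 2 was the highest of either group. Replicate 2 also had the highest sum in Tat-Tazemetostat (3073, 7991 and 3500 CPM) and Tat-4OI (1438, 3080 and 1245 CPM). The same held in the Tazemetostat (1736, 2159 and 1672 CPM) and 4OI groups (896, 1964 and 938 CPM). In Tat-Cocaine replicate 2 was the lowest. The cause of this pattern by replicate number was not tested. Homeostatic microglial markers such as P2ry12, Tmem119 and Cx3cr1 summed to 1118, 1430 and 1005 CPM with tazemetostat and to 285, 639 and 360 CPM with 4OI. Markers of border macrophages, the macrophages of meninges and perivascular spaces, summed to 1238, 1436 and 1245 CPM and to 97.3, 437 and 142 CPM. In bulk libraries, fewer cells of a type and less RNA per cell cannot be told apart.

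**Figure D1:**
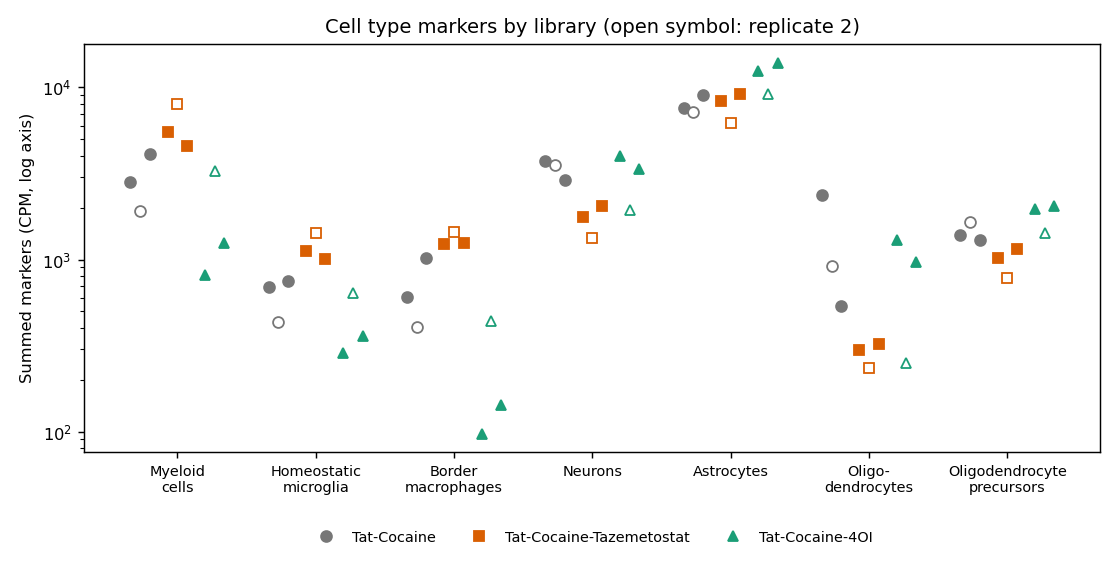
Summed expression of 7 lists of cell type markers (CPM, log axis) in each library of the Tat-Cocaine, Tat-Cocaine-Tazemetostat and Tat-Cocaine-4OI groups; each symbol is 1 library and open symbols are replicate 2. Myeloid markers lay between 4584 and 8044 CPM with tazemetostat and between 811 and 3259 CPM with 4OI, and replicate 2 of 4OI sat toward the tazemetostat libraries for myeloid cells, neurons and oligodendrocytes.

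Each gene was tested with limma on log2(CPM + 0.5), on which scale the fold changes below are given and which understates the change of low genes; positive values are higher with tazemetostat, and the threshold was a Benjamini-Hochberg adjusted p (FDR) under 0.05. Of the 15890 genes, 3877 were called. They comprised 2203 genes higher with tazemetostat (13.9% of those tested) and 1674 higher with 4OI (10.5%). In 3505 of the 3877, the libraries of the groups did not overlap. The threshold itself favours such genes, so this count adds no separate evidence. The share over all genes tested was not taken. Calls with an absolute log2 fold change of at least 1 were 874 higher with tazemetostat and 163 higher with 4OI, and the median over all genes was -0.01. Without replicate 2 of 4OI the count was 5764, which held 3718 of the 3877 (95.9%). Without the second library of every group it was 3432, and without replicate 1 of 4OI, replicate 2 of tazemetostat or replicate 3 of 4OI it was 1663, 1841 and 2183.

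Nrf2 targets were lower with tazemetostat than with 4OI, whichever library was left out. Of 22 tested members 17 were lower and 0 higher, with a median log2 fold change of -0.81, against 10.5% of all genes called lower. It was 17 in each fit that left out 1 library and 17 without the second library of every group. The list comprises enzymes of glutathione synthesis, of quinone and haem breakdown and of NADPH supply.

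Nqo1, a quinone reductase, measured 107, 117 and 95.6 CPM in the tazemetostat libraries and 439, 512 and 402 CPM in the 4OI libraries. The Tat-Cocaine libraries held 109, 143 and 114 CPM and the Control libraries 87.1, 106 and 116 CPM, so the tazemetostat libraries lay among the levels without compound. The ratio of the group means was 4.24 (log2 fold change -2.08, SE 0.18, FDR 2.82e-10). Gclm, the modifier subunit of glutamate-cysteine ligase, measured 27.9, 30.7 and 27.5 CPM and 133, 92.1 and 115 CPM (log2 fold change -1.95, SE 0.16, FDR 2.54e-10), and its catalytic subunit Gclc 90.9, 85.3 and 96.3 CPM and 165, 167 and 158 CPM (log2 fold change -0.84, SE 0.10, FDR 6.30e-07). The groups of either subunit did not overlap, and the spread within a group was small for Gclc. Slc7a11, which imports the cystine used for glutathione, was at 79.5 ± 8.12 CPM (SD, n = 3) with tazemetostat and at 364 ± 56.2 CPM (SD, n = 3) with 4OI, 4.57 times as high (log2 fold change -2.18, SE 0.31, FDR 4.77e-06). The glutathione transferases Gstp1 and Gsta1 were at 201, 243 and 186 CPM and 132, 116 and 129.7 CPM with tazemetostat. With 4OI they were at 1006, 1178 and 828 CPM and 825, 691 and 713 CPM (log2 fold changes -2.25 and -2.55, FDR 2.62e-06 and 3.51e-10). Transferase genes have near copies, and reads that fit several copies are left out when only uniquely mapped reads are counted.

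Hmox1, the haem oxygenase that opens haem breakdown, was above Tat-Cocaine cultures with both compounds. It measured 172, 214 and 237 CPM in Tat-Cocaine cultures, 381, 499 and 376 CPM with tazemetostat and 1348, 845 and 1034 CPM with 4OI. The 4OI libraries lay highest (log2 fold change -1.35, SE 0.23, FDR 7.88e-05), and tazemetostat was itself above Tat-Cocaine (log2 fold change 1.01, FDR 0.00638). Fth1, the ferritin heavy chain, and Taldo1 and Me1, which supply NADPH or feed the pentose phosphate pathway, were lower with tazemetostat by log2 fold changes of -1.11, -1.56 and -1.26 (FDR 1.26e-05, 1.35e-08 and 7.33e-06). Osgin1, an oxidative stress-induced gene, gave -1.74 (FDR 1.98e-07) and Txnrd1, thioredoxin reductase, -0.66 (FDR 0.000782). The members that did not pass were Gsta4 (-0.28), Prdx1 (-0.26), Ftl1 (-0.03), Abcc1 (0.01) and Ugdh (0.2).

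**Figure D2:**
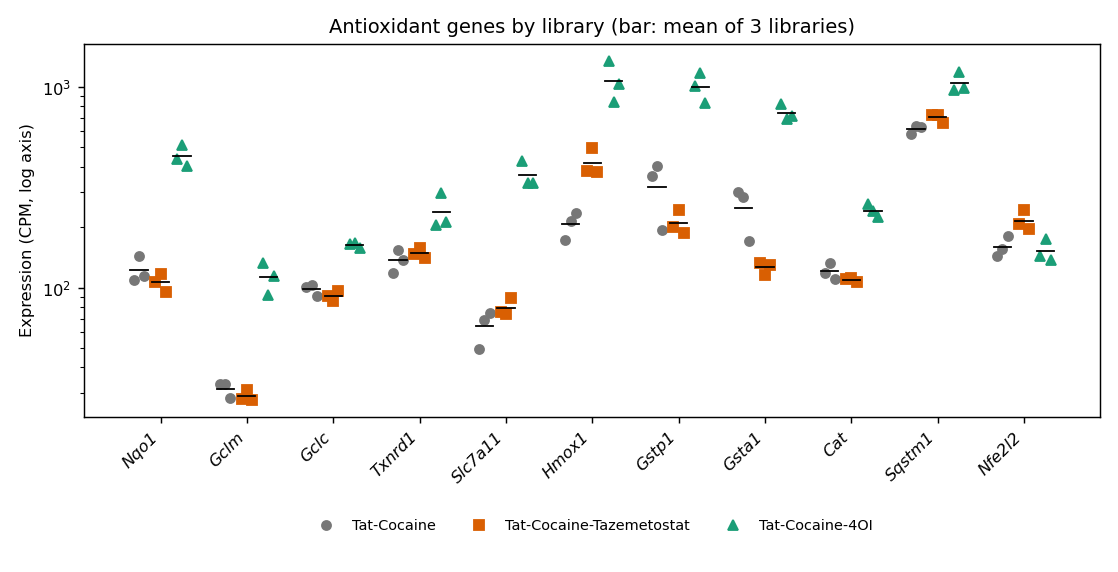
Expression of 11 antioxidant genes (CPM, log axis) in each library of the Tat-Cocaine, Tat-Cocaine-Tazemetostat and Tat-Cocaine-4OI groups; symbols are libraries and bars are means of 3. For 10 of the genes the 4OI libraries sat above the tazemetostat libraries, whereas Nfe2l2 was higher with tazemetostat.

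The transcript of Nrf2 itself went the other way. Nfe2l2, which encodes Nrf2, measured 208, 244 and 195 CPM with tazemetostat and 144, 175 and 137 CPM with 4OI (log2 fold change 0.51, SE 0.13, FDR 0.00469), and FDR rose to 0.0547 without replicate 2 of tazemetostat. Sqstm1, the autophagy adaptor that binds Keap1, was lower with tazemetostat at 727, 727 and 663 CPM against 969, 1190.0 and 991 CPM (log2 fold change -0.57, SE 0.08, FDR 1.04e-05), and Keap1, which targets Nrf2 for degradation, gave -0.32 (FDR 0.00456). These were the 3 called of 8 regulators of Nrf2, and 1 was called without replicate 2 of tazemetostat. Antioxidant genes outside the Nrf2 list were divided, with 5 of 21 higher and 6 lower and a median of -0.05 (7, 6 and 7 called without replicate 1 of tazemetostat, replicate 1 and replicate 3 of 4OI). Catalase (Cat) was at 111, 111 and 107 CPM and 261, 240.0 and 225 CPM (log2 fold change -1.14, SE 0.09, FDR 5.83e-11), with non-overlapping groups of very small spread. Gpx3, a secreted glutathione peroxidase, was at 151, 191 and 163 CPM and 17.1, 48.5 and 20.1 CPM, higher with tazemetostat in all 3 libraries (log2 fold change 2.69, SE 0.39, FDR 9.51e-06).

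Further genes were among the most different of those higher with 4OI, and of the 6 given here Penk belongs to a list, the late activity-regulated neuronal genes. Ddit4l2 was at 3.62, 3.97 and 3.71 CPM with tazemetostat and at 39.6, 25.1 and 32.3 CPM with 4OI (log2 fold change -2.92, SE 0.32, FDR 5.79e-08). Igfbp5, an insulin-like growth factor binding protein, measured 154, 161 and 152 CPM and 733, 623 and 700.2 CPM (log2 fold change -2.13, SE 0.35, FDR 3.69e-05). Pla2g7, the secreted hydrolase of platelet-activating factor, measured 47.6, 37.3 and 49.4 CPM and 237, 162 and 203 CPM (log2 fold change -2.15, SE 0.19, FDR 2.82e-10). In each of these the 4OI libraries were several times above all tazemetostat libraries. Penk, the precursor of enkephalins, measured 23.7, 12 and 23.8 CPM and 136, 88.3 and 112 CPM (log2 fold change -2.51, FDR 0.000643), Pamr1 23.1, 22.5 and 18.4 CPM and 124, 75.3 and 80 CPM (-2.07, FDR 0.000137). Akr1b8, an aldo-keto reductase, measured 1.11, 2.9 and 1.93 CPM and 7.3, 25.2 and 7.48 CPM (-2.3, FDR 0.00929), and replicate 2 of 4OI was its highest library.

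Chemokines and cytokines were higher with tazemetostat or did not pass the test, and no member was lower. Of 21 chemokine genes 10 were higher (median 1.40), and of 17 interleukin and TNF family genes 9 were higher (median 0.75), against 13.9% of all genes. Leaving out 1 library gave 5 to 13 chemokines and 8 to 10 interleukins, with 5 chemokines without replicate 2 of tazemetostat or replicate 1 of 4OI, 6 without replicate 1 of tazemetostat or replicate 3 of 4OI and 13 without replicate 2 of 4OI.

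Cxcl13, the chemokine that attracts B cells, had the largest positive log2 fold change among the named genes. It measured 137, 180.4 and 63.1 CPM with tazemetostat, 4.35, 4.31 and 4.21 CPM with 4OI and 51.6, 18.8 and 57.4 CPM in Tat-Cocaine cultures, against 0.23, 1.13 and 0.499 CPM in Control (log2 fold change 4.6, SE 0.53, FDR 1.64e-07). The 4OI libraries were nearly equal to each other, including replicate 2. Ccl3, a chemokine for monocytes, measured 27.7, 33.5 and 24.4 CPM and 2.76, 8.75 and 4.63 CPM (log2 fold change 2.42, SE 0.52, FDR 0.000948). Ccl20 and Cxcl6 differed by 2.94 and 2.57 (FDR 0.000169 and 0.0285). The monocyte chemokine Ccl2 was at 601, 723 and 582 CPM and 218, 448 and 194 CPM, and although the libraries did not overlap, it did not pass the test (log2 fold change 1.24, 95% interval -0.05 to 2.54, FDR 0.147).

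The interleukin 1 genes were higher with tazemetostat. Il1b measured 89.9, 139 and 65.9 CPM with tazemetostat and 7.72, 37.1 and 14.8 CPM with 4OI, and 20.3, 40.7 and 82.3 CPM with Tat and cocaine alone (log2 fold change 2.49, SE 0.50, FDR 0.000472). Il1a measured 15.1, 21.4 and 17.7 CPM and 2.2, 6.24 and 2.63 CPM (log2 fold change 2.26, SE 0.40, FDR 0.000121), and the antagonist Il1rn ran with them (2.35, FDR 0.0016). In both Il1a and Il1b the 4OI group was below all tazemetostat libraries and its replicate 2 was its highest. Il6, by contrast, was low in all libraries at 3.72, 4.94 and 4.7 CPM and 1.73, 7.46 and 3.82 CPM (log2 fold change 0.21, 95% interval -0.84 to 1.26, FDR 0.789). Il10, at 0.435, 0.255 and 0.329 CPM and 0.0936, 0.117 and 0 CPM, gave 0.56 (FDR 0.0905), and Tnf was listed at 0 in all 6 libraries.

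**Figure D3:**
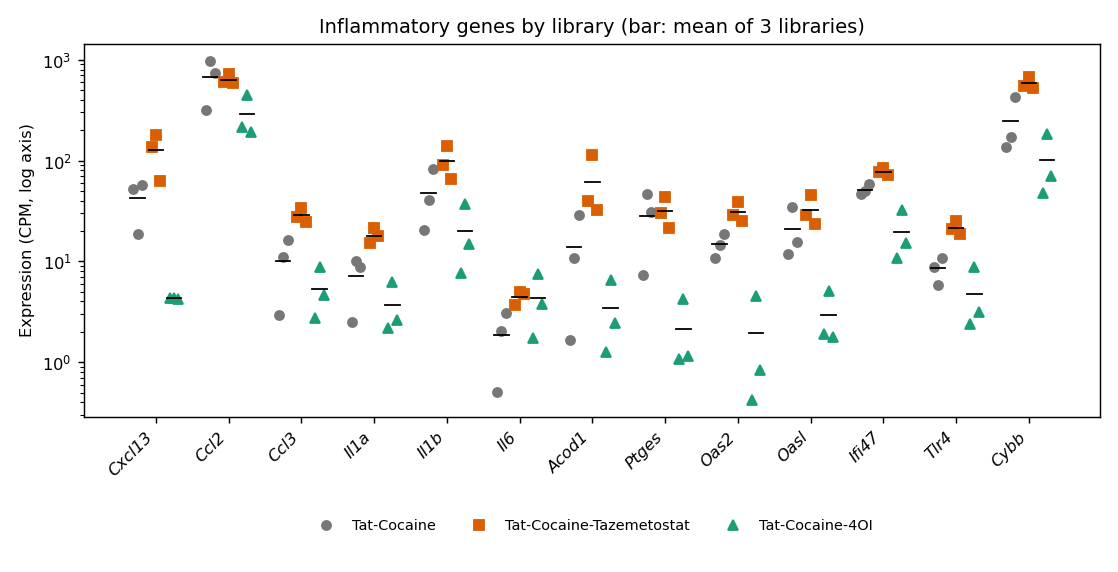
Expression of 13 inflammatory genes (CPM, log axis) in each library of the Tat-Cocaine, Tat-Cocaine-Tazemetostat and Tat-Cocaine-4OI groups; symbols are libraries and bars are means of 3. In 12 of the genes all tazemetostat libraries sat above all 4OI libraries, and for Il6 the groups overlapped.

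Interferon response genes were higher with tazemetostat. Of 23 members 20 were higher and 0 lower, with a median of 1.60. The count was 22 without replicate 2 of 4OI and 23 without the second library of every group, but 11, 12 and 13 without replicate 1 of 4OI, replicate 2 of tazemetostat and replicate 3 of 4OI. Oasl, an oligoadenylate synthetase-like antiviral protein, measured 28.8, 46 and 23.3 CPM and 1.92, 5.07 and 1.78 CPM (log2 fold change 3.35, SE 0.78, FDR 0.00191). Oas2, another enzyme of this family, measured 28.9, 38.6 and 24.9 CPM and 0.421, 4.55 and 0.843 CPM (log2 fold change 4.06, SE 0.76, FDR 0.000217). Ifi47, an interferon-inducible GTPase, measured 76.9, 84 and 71.5 CPM and 10.9, 32.4 and 15.3 CPM (log2 fold change 2.11, SE 0.32, FDR 1.40e-05), and in each of these genes the groups did not overlap. Of the genes whose promoter sequence is printed above, Oas1a differed by 2.7, Ifit3 by 2.55, Irf7 by 2.04 and Ifih1 by 1.01 (FDR 0.00169, 0.0231, 0.0112 and 0.00397). Mx1, Usp18 and Rsad2 gave 2.97, 2.72 and 2.63 (FDR 0.0108, 0.00181 and 0.0303). Irf1 (0.48), Ifitm3 (0.58) and Bst2 (0.81) did not pass.

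Siglec1, a sialic acid receptor of macrophages that is induced by interferon, measured 169.6, 273 and 144 CPM with tazemetostat and 4.12, 26.1 and 5.8 CPM with 4OI (log2 fold change 4.36, SE 0.62, FDR 6.62e-06). Slfn4, a Schlafen family gene, measured 28.2, 33 and 24.2 CPM and 1.54, 3.91 and 1.83 CPM (log2 fold change 3.38, SE 0.81, FDR 0.00266). The Tat-Cocaine libraries of Slfn4 were at 27.1, 45.2 and 27.6 CPM, so that the tazemetostat libraries lay at the level of the cultures without compound and the 4OI libraries below it.

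NF-kB subunits and feedback genes were higher in 11 of 19 members and lower in 1, with a median of 0.84. The count called was 4 without replicate 1 of 4OI and 7 without replicate 3 of 4OI. Bcl2a1, a survival factor induced by NF-kB, measured 27.7, 46.2 and 27.7 CPM and 3.42, 10.1 and 3.57 CPM (log2 fold change 2.59, SE 0.43, FDR 4.62e-05), and Tnfaip3, the feedback inhibitor A20, gave 1.7 (FDR 0.00278). The member that was lower was Traf1, an adaptor of TNF receptors, at 5.36, 4.33 and 5.03 CPM and 7.35, 8.8 and 7.73 CPM (log2 fold change -0.65, SE 0.17, FDR 0.00547). Tnfrsf14, a TNF receptor family member, was higher at 14.8, 30.6 and 14.2 CPM and 0.515, 3.96 and 1.04 CPM (log2 fold change 3.32, SE 0.55, FDR 4.74e-05).

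Receptors and effectors of innate immunity were higher with tazemetostat. Of 19 Toll-like receptor and inflammasome genes 16 were higher (median 1.70), of 17 phagocyte oxidase and phagocytosis genes 15 (median 1.82), of 19 complement genes 13 (median 1.64) and of 19 antigen presentation genes 12 (median 1.18), with 0 lower in each. Leaving out 1 library gave 12 to 16, 13 to 15, 8 to 17 and 8 to 16, and complement was at 8 without replicate 1 of 4OI. Tlr4, the receptor for lipopolysaccharide, measured 21.1, 24.9 and 18.5 CPM and 2.39, 8.86 and 3.12 CPM (log2 fold change 2.25, SE 0.35, FDR 2.10e-05). Cybb, the catalytic subunit of the phagocyte oxidase, measured 553, 680.1 and 519 CPM and 47.9, 184 and 69.8 CPM (log2 fold change 2.76, SE 0.41, FDR 1.13e-05), and C1qc, a chain of the complement starter C1q, 1179, 1551 and 1057 CPM and 137, 368 and 147 CPM (log2 fold change 2.67, SE 0.40, FDR 1.34e-05). Each of these had non-overlapping groups, with replicate 2 the highest of the 4OI group. Cd40, a co-stimulatory receptor, measured 8.46, 9.43 and 6.3 CPM and 1.4, 3.5 and 1.04 CPM (log2 fold change 1.9, SE 0.32, FDR 7.31e-05). The class II genes Cd74 and RT1-Da and the inflammasome genes Nlrp3 and Casp1 gave 2.33, 2.62, 2.16 and 2.05 (FDR 0.0114, 0.000181, 0.000135 and 0.000235). The RT1 genes are near copies of each other, and reads that fit several of them are left out in the same way.

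Among secreted defence proteins 8 of 15 were higher and 0 lower (median 1.55), with 5, 4 and 5 called without replicate 1 of tazemetostat, replicate 1 of 4OI and replicate 3 of 4OI. Retn, resistin, measured 3.53, 7.08 and 5.07 CPM with tazemetostat and 0.117, 0.117 and 0.0991 CPM with 4OI. The 4OI values stand for a few reads each, so no fold is given beyond the fitted log2 fold change of 3.18 (SE 0.25, FDR 5.87e-11), which depends on the pseudocount. Pla2g2a, a secreted phospholipase, was also near the lower limit with 4OI at 9.18, 15.1 and 9.44 CPM against 0.0468, 2.62 and 0.198 CPM (FDR 0.00303). Eicosanoid genes were higher in 11 of 17 and lower in 0 (median 1.04), with 7 called without replicate 2 of tazemetostat or replicate 1 of 4OI. Ptges, the inducible prostaglandin E synthase, measured 30.4, 43.8 and 21.5 CPM and 1.08, 4.2 and 1.14 CPM (log2 fold change 3.76, SE 0.56, FDR 1.18e-05), whereas the cyclooxygenase Ptgs2 differed by 0.08 (FDR 0.922).

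Acod1, which makes itaconate, was itself among the genes that differed most. It measured 39.8, 113 and 32.3 CPM with tazemetostat and 1.26, 6.59 and 2.43 CPM with 4OI (log2 fold change 4.0, SE 0.82, FDR 0.00058). The Tat-Cocaine libraries spread over 1.66, 10.8 and 29 CPM and the Control libraries over 0.115, 0.539 and 0.454 CPM. Gpr84, a receptor for medium-chain fatty acids on activated myeloid cells, measured 52.1, 106 and 41.2 CPM and 3.93, 31.7 and 9.76 CPM (log2 fold change 2.44, SE 0.85, FDR 0.0341), and its FDR was 0.0597, 0.161, 0.239 and 0.0969 without replicates 1 and 2 of tazemetostat and 1 and 3 of 4OI. The other TCA cycle genes leaned lower with tazemetostat by small amounts. Of the 22 itaconate and TCA cycle genes 7 were called lower, against 10.5% of all genes, and Acod1 was the 1 called higher. The median was -0.22, and 5 of the 22 had a positive log2 fold change. Without replicate 2 of 4OI 13 were called, with the replicate number as a block 13, and without replicate 3 of 4OI 5. Idh1, the cytosolic isocitrate dehydrogenase, measured 169.8, 141 and 174 CPM and 307, 218 and 294 CPM (log2 fold change -0.75, SE 0.12, FDR 3.73e-05).

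Purinergic receptors and phosphodiesterases, which carry ATP and cyclic nucleotide signals, moved in both directions. Of 20 genes 11 were higher and 3 lower (median 0.57), with 6, 7 and 7 called without replicate 2 of tazemetostat, replicate 1 of 4OI and replicate 3 of 4OI. P2ry6, the UDP receptor of microglia, measured 124, 151 and 112 CPM and 13.7, 52.3 and 21.1 CPM (log2 fold change 2.34, SE 0.48, FDR 0.000506), P2ry2 14.6, 20.8 and 16.3 CPM and 2.67, 6.41 and 3.42 CPM (log2 fold change 2.0, SE 0.29, FDR 9.82e-06). P2rx1 and P2rx4, ATP-gated channels, gave 2.41 and 1.06 (FDR 2.18e-08 and 0.00157). Pde4b, the cyclic AMP hydrolase of inflammatory cells, was at 66.1, 79.1 and 59.3 CPM and 43.9, 42 and 38.7 CPM (log2 fold change 0.7, SE 0.25, FDR 0.0401), and passed only in the fits with all 6 libraries or without replicate 3 of tazemetostat (FDR 0.0501 to 0.175 otherwise). Pde1a, a calcium-dependent hydrolase of neurons, was at 8.26, 6.42 and 10.7 CPM and 26.1, 10.7 and 21 CPM (log2 fold change -1.08, SE 0.34, FDR 0.0216), with overlapping groups, and its FDR was 0.0516 to 0.173 without replicates 1 or 2 of tazemetostat or replicates 1 or 3 of 4OI. Vasp, an actin regulator that cyclic nucleotide-dependent kinases phosphorylate, was at 232, 364 and 196 CPM and 58.7, 141 and 75.4 CPM, with non-overlapping groups (log2 fold change 1.57, SE 0.39, FDR 0.00341).

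The subunits of the complex that tazemetostat inhibits differed little in transcript level. Ezh2 measured 15.6, 20.3 and 15.3 CPM with tazemetostat and 11, 15 and 14.4 CPM with 4OI (log2 fold change 0.34, 95% interval -0.10 to 0.77, FDR 0.244). Ezh1, its paralog, measured 42.4, 47.6 and 42.6 CPM and 43, 50.7 and 38.3 CPM (0.01, 95% interval -0.23 to 0.26). Eed and Suz12, the core subunits, were higher with tazemetostat by 0.43 and 0.31 (FDR 0.00171 and 0.003), and the accessory subunit Jarid2 was lower by -0.38 (FDR 0.0293). The FDR of Jarid2 was 0.146, 0.0636, 0.117 and 0.126 without replicates 1 and 2 of tazemetostat and 1 and 3 of 4OI. Of 12 PRC2 genes 3 were higher and 1 lower (median 0.00), and of 15 PRC1 genes 2 were higher and 0 lower (median 0.04), among them Bmi1 at 0.39 (FDR 0.00299). Over all genes tested 13.9% were called higher and 10.5% lower. The counts of 4 and 2 became 2 and 1 without replicates 1 or 2 of tazemetostat or 1 or 3 of 4OI.

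Developmental genes known as Polycomb targets were mostly not expressed here, as 16 of 69 in the list were tested. Of the 16, 3 were higher with tazemetostat and 0 lower, beside 13.9% and 10.5% of all genes, so the share called higher was not far from that of all genes. The median was -0.12, and 7 of the 16 had a positive log2 fold change. Without replicate 2 of tazemetostat or replicate 1 of 4OI, 1 was called. The 3 were Wnt6, Cdkn2a and Pax8. Wnt6, a secreted signalling protein, measured 9.18, 13.2 and 7.61 CPM and 0.562, 2.27 and 0.892 CPM, and 2.45, 3.52 and 5.52 CPM with Tat and cocaine alone (log2 fold change 2.68, SE 0.35, FDR 1.97e-06). Cdkn2a, the cell cycle inhibitor locus that PRC2 silences in proliferating cells, gave 1.26 (FDR 0.0408), and Pax8, a transcription factor, gave 0.83 (FDR 0.0165).

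Lipid genes differed in direction by pathway. Cholesterol synthesis genes were lower with tazemetostat in 11 of 22 and higher in 0 (median -0.39), with 6 called without replicate 1 of 4OI. Hmgcs1, which opens the pathway to sterols, measured 166, 187 and 181 CPM and 461, 308 and 435 CPM (log2 fold change -1.15, SE 0.16, FDR 3.55e-06), and Dhcr7, a late enzyme of it, gave -0.78 (FDR 0.00064). Targets of the liver X receptor, which senses excess sterol, were higher in 6 of 9 (median 0.82). Apoe, the lipid carrier of glia, measured 10378, 9180.2 and 9157 CPM and 4319, 3358 and 4248 CPM (log2 fold change 1.27, SE 0.18, FDR 5.58e-06), and Abcg1, a sterol exporter, gave 1.4 (FDR 8.20e-05). Genes of fatty acid synthesis and use were higher in 2 and lower in 5 of 18, with 4 called without replicate 2 of tazemetostat or replicate 1 of 4OI. Srebf1 measured 931, 767 and 859.5 CPM and 288, 351 and 361 CPM (log2 fold change 1.36, SE 0.36, FDR 0.00608), and Pdk4, a kinase that restrains pyruvate oxidation, 4.59, 5.3 and 5.17 CPM and 13.9, 24.3 and 17 CPM (log2 fold change -1.74, SE 0.23, FDR 1.50e-06).

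Stress pathways were higher, lower or mixed according to the arm. Unfolded protein response genes were higher with tazemetostat in 10 of 15 and lower in 0 (median 0.52), with 3, 3 and 4 called without replicate 2 of tazemetostat, replicate 1 of 4OI and replicate 3 of 4OI. Sdf2l1, a chaperone partner of the endoplasmic reticulum, measured 60.2, 88.7 and 54 CPM and 7.77, 20.9 and 11.1 CPM (log2 fold change 2.39, SE 0.43, FDR 0.000138). ATF4 targets were higher in 6 and lower in 2 of 19 (median 0.22), and the fits without replicates 1 or 2 of tazemetostat or 1 or 3 of 4OI called 2. Ddit3, the factor CHOP, measured 125, 140.1 and 116 CPM and 42.5, 56.7 and 44.5 CPM (log2 fold change 1.41, SE 0.28, FDR 0.000344), while Slc3a2, the partner chain of Slc7a11, measured 371, 358 and 381 CPM and 697, 661 and 681 CPM (log2 fold change -0.88, SE 0.15, FDR 7.90e-05). Heat shock genes were lower in 5 of 13 (median -0.13), among them Hspd1, a mitochondrial chaperonin, at 194, 198 and 199.7 CPM and 289, 239 and 253 CPM (log2 fold change -0.4, SE 0.06, FDR 5.81e-06). Glycolysis and hypoxia genes were higher in 1 and lower in 3 of 23 (median -0.17). Hk2 was the higher one, at 1.38 (FDR 0.00203), and the glucose carrier Slc2a1 was lower at 209.8, 208 and 168 CPM against 283, 396 and 312 CPM (log2 fold change -0.75, SE 0.18, FDR 0.00289). The count of 4 was 2 without replicate 2 of tazemetostat, replicate 1 of 4OI or replicate 3 of 4OI and 7 without replicate 2 of 4OI.

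Other lists held 0 to 5 calls each, beside 13.9% of all genes called higher and 10.5% called lower. With lists this short, these counts were not read as results about the lists. Of 10 pericyte and fibroblast markers 2 were higher, Pdgfrb (0.84, FDR 0.0138, and 0.0928 without replicate 1 of 4OI) and Kcnj8 (1.43, FDR 0.0338), with 1 called without replicates 1 or 2 of tazemetostat or replicate 3 of 4OI, 0 without replicate 1 of 4OI and 4 without its replicate 2. Of 6 endothelial and 4 ependymal markers tested, 0 were called. Of 14 apoptosis genes 2 were higher and 2 lower, with Casp8 at 1.37 (FDR 0.000591) and Sesn1 at -0.55 (FDR 0.000263). Of 18 immediate-early genes 1, Fosl1, was lower (-0.85, FDR 0.00302). Of 20 collagen and matrix genes 3 were lower, and of 16 matrix proteases and inhibitors 3 were higher and 2 lower. Postn and Mmp15 were lower at -1.16 and -0.68 (FDR 0.0214 and 0.0018), and Mmp2 was higher at 1.13 (FDR 0.0307). The FDR of Postn was 0.0707, 0.0597 and 0.0731 without replicate 2 of tazemetostat, 1 of 4OI and 2 of 4OI, and that of Mmp2 was 0.0565 to 0.255 in 5 of 6 such fits. The matrix list called 0 to 7 genes as single libraries were left out (0 without replicate 1 of 4OI, 1 without any 1 tazemetostat library, 7 without replicate 2 of 4OI), and the direction turned in the last of these, with 6 higher and 1 lower and a median of 0.56 in place of 0.1. Without the second library of every group 3 matrix genes were higher and 1 lower. The protease list called 1 to 7 as single libraries were left out (1 without replicate 3 of 4OI, 2 without replicate 1 of 4OI or any 1 tazemetostat library). Of 17 motile cilium genes 1, Gmnc, was lower (-1.03, FDR 0.0278; FDR 0.0669 to 0.0988 without replicates 1 or 2 of tazemetostat or 1 or 3 of 4OI).

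Neuronal markers summed lower with tazemetostat, although few genes passed the test. Summed neuronal markers were 1761, 1333 and 2034 CPM with tazemetostat and 4017, 1934 and 3362 CPM with 4OI, against 3758, 3534 and 2908 CPM in Tat-Cocaine cultures. The tazemetostat libraries were below the range of the Tat-Cocaine libraries, and replicate 2 of 4OI lay among them. Of 17 neuronal markers 3 were called lower (median -0.82), and all 17 had a negative log2 fold change. The count was 15 without replicate 2 of 4OI and 12 with the replicate number as a block, but 0 without replicate 2 of tazemetostat, replicate 1 or replicate 3 of 4OI, 1 without replicate 1 of tazemetostat, 7 without replicate 3 of tazemetostat and 0 in a fit to the 6 libraries alone. Map2, a microtubule protein of dendrites, measured 264, 215 and 316 CPM and 584, 325 and 521 CPM (log2 fold change -0.82, SE 0.23, FDR 0.00845), and its FDR was 0.0742, 0.0922 and 0.0507 without replicate 2 of tazemetostat, replicate 1 of 4OI and replicate 3 of 4OI.

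Of 25 genes of synapses and neuronal channels 10 were lower and 0 higher (median -0.74). Without replicate 2 of 4OI 22 were lower and with the replicate number as a block 16, whereas 0 or 1 were called without replicates 1 or 2 of tazemetostat or 1 or 3 of 4OI. Gria2 and Grin1, glutamate receptor subunits, gave -0.81 and -0.75 (FDR 0.0359 and 0.0463), and Syn2, a synaptic vesicle protein, -0.94 (FDR 0.0378). The calcium channel gene Cacna1c was at 10.4, 8.05 and 11.2 CPM and 19, 12.6 and 17.2 CPM (log2 fold change -0.68, SE 0.19, FDR 0.01), with FDR 0.0893 and 0.0911 without replicate 2 of tazemetostat and replicate 1 of 4OI. Late activity-regulated neuronal genes were lower in 3 of 15 and higher in 1, Pim1 (1.01, FDR 0.000767), and 2 were called without replicate 1 or 3 of 4OI and 7 without its replicate 2.

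Astrocyte markers summed to 8340, 6253 and 9122 CPM with tazemetostat and to 12500, 9161 and 13950 CPM with 4OI, and 6 of 13 were lower with tazemetostat (median -0.56). The count was 3 without replicate 2 of tazemetostat or replicates 1 or 3 of 4OI. Slc1a2, the main glutamate transporter of astrocytes, measured 39, 30.8 and 41.3 CPM and 115, 63.7 and 109 CPM (log2 fold change -1.32, SE 0.20, FDR 1.82e-05). Gfap, the intermediate filament of astrocytes, gave -0.73 (FDR 0.0345), with overlapping groups and FDR 0.0515 to 0.235 without replicates 1 or 2 of tazemetostat or 1 or 3 of 4OI. Oligodendrocyte precursor markers were lower in 5 of 8 (median -0.92), with 2, 3 and 2 called without replicate 2 of tazemetostat, replicate 1 and replicate 3 of 4OI. Ptprz1, a receptor phosphatase of glial progenitors, measured 496, 419 and 569 CPM and 1053, 764 and 1016 CPM (log2 fold change -0.93, SE 0.14, FDR 1.18e-05).

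Myelin genes had the most negative median of the 44 lists, -2.22 over 11 oligodendrocyte markers, and 0 calls, and the libraries of one group differed widely. The markers summed to 299.8, 233 and 323 CPM with tazemetostat, 1293, 251 and 964 CPM with 4OI and 2357, 918 and 536 CPM in Tat-Cocaine cultures, with replicate 2 of 4OI among the tazemetostat libraries. Cldn11, the claudin of myelin, measured 4.4, 0.713 and 5.78 CPM with tazemetostat and 56.9, 5.54 and 34.7 CPM with 4OI (log2 fold change -2.78, SE 1.29, FDR 0.108). Without replicate 2 of 4OI, 4 of the 11 were called (median -3.12), and Cldn11 gave -3.75 (FDR 0.0365).

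Cell cycle genes were higher in 3 of 27 and lower in 0, a share below the 13.9% of all genes called higher, with a median of 0.78. The block by replicate number gave 10 and the fit without replicate 2 of 4OI 9, whereas each other fit that left out 1 library gave 0 or 1. Mki67, a marker of dividing cells, measured 73.9, 80.6 and 90.7 CPM and 18.7, 41.1 and 37.4 CPM, with 25.2, 22.6 and 49.7 CPM with Tat and cocaine alone (log2 fold change 1.4, SE 0.47, FDR 0.0285). Its FDR was 0.0513, 0.0806, 0.0687 and 0.204 without replicates 1, 2 and 3 of tazemetostat and replicate 1 of 4OI.

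The 13 myeloid markers differed by similar amounts, with log2 fold changes from 1.77 to 2.49, whereas other macrophage and microglial lists spread more widely. The mean log2 level of the 13 myeloid markers was 2.06 higher with tazemetostat. Of all 2203 genes called higher, which are not only myeloid genes, 237 had a larger log2 fold change than this and 1966 did not. The median of the border macrophage genes was above it at 2.47, with 8 of 11 higher (7 to 8 as 1 library was left out) and log2 fold changes from 0.21 to 4.36. Lyve1, a hyaluronan receptor of such macrophages, measured 78.6, 52.2 and 132 CPM and 2.85, 14.2 and 4.63 CPM (log2 fold change 3.7, SE 0.44, FDR 3.14e-07), and 107, 43 and 106 CPM in Tat-Cocaine cultures. Cd163, the haemoglobin scavenger receptor, measured 2.8, 0.51 and 7.85 CPM with tazemetostat, 0.234, 0.0583 and 0.0496 CPM with 4OI, 16.6, 19.9 and 25.5 CPM in Tat-Cocaine and 63, 40.4 and 40.8 CPM in Control cultures, so both compounds were below the cultures without compound (log2 fold changes -2.78 and -5.1, FDR 0.0061 and 5.76e-07). Between the compounds Cd163 gave 2.32 (FDR 0.00679, and 0.0731 without replicate 3 of tazemetostat). Homeostatic microglial genes were higher in 8 of 10 (median 1.86), with 3, 2 and 5 called without replicate 2 of tazemetostat, replicate 1 and replicate 3 of 4OI. Csf1r, the receptor on which microglial survival depends, measured 626, 827 and 549 CPM and 65.2, 284 and 104 CPM (log2 fold change 2.39, SE 0.39, FDR 3.73e-05). Disease-associated microglia genes were higher in 11 of 18 and lower in 0 (median 1.06), among them Clec7a at 30.6, 31.5 and 25.1 CPM and 5.48, 7.05 and 6.39 CPM (log2 fold change 2.12, SE 0.30, FDR 5.46e-06).

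A further fit, chosen after the data were seen, held the mean log2 level of the 13 myeloid markers as a covariate. It called 648 genes between the compounds, 312 higher and 336 lower with tazemetostat, of which 361 were among the 3877 (9.31%) and 5 of these had the opposite sign. Nrf2 targets were lower in 17 of 22 in it, with a median of -1.05, and Gclm, Nqo1 and Gsta1 gave -1.67, -2.36 and -2.55. Border macrophage genes had 5 calls against 8 without the covariate (median 1.49). The interferon list went to 1 called gene (median 0.43), chemokines to 2 (0.35), phagocyte genes to 1, and Toll-like receptor genes, antigen presentation genes and interleukins to 0. Cxcl13, Retn, Lyve1 and Ptges passed as higher at 3.27, 2.82, 2.83 and 2.21. Other genes described above no longer passed with the covariate, among them Acod1 (1.7, FDR 0.341), Oas2 (1.09, FDR 0.405), Oasl (0.59, FDR 0.741), Slfn4 (0.95, FDR 0.631), Il1b (0.66, FDR 0.498), Nfe2l2 (0.11, FDR 0.733) and Vasp (0.09, FDR 0.928). Neurons and synapse genes had 0 calls and positive medians. The covariate lies apart between the groups and was measured on the same libraries, so that a treatment effect shared by these markers is removed with it. Lists of homeostatic microglia, acute-phase proteins, complement, disease-associated microglia and phagocytes each share 1 gene with it.

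**Figure D4:**
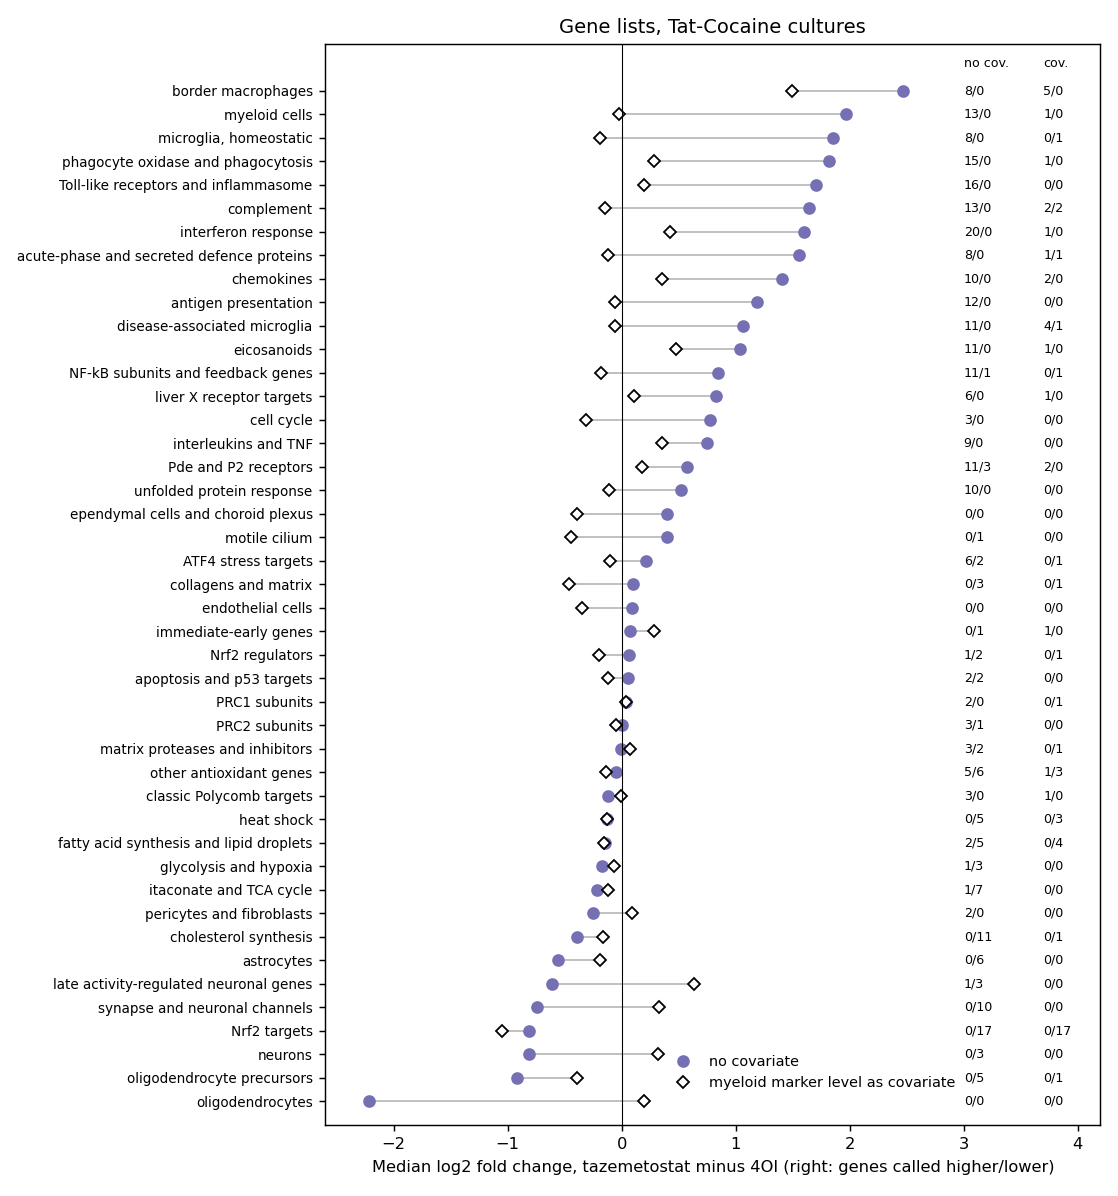
Median log2 fold change of 44 gene lists, tazemetostat minus 4OI in Tat-Cocaine cultures, with no covariate (filled circles) and with the mean log2 level of the myeloid markers as a covariate (open diamonds); the columns at the right give genes called higher/lower in each fit. Nrf2 targets were called lower in 17 of 22 in both fits, whereas the interferon list went from 20 to 1.

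Each compound was also compared with Tat-Cocaine cultures. Both comparisons use the same 3 Tat-Cocaine libraries and are not independent. Tazemetostat gave 2423 genes higher (15.2%) and 2131 lower (13.4%), and 4OI gave 647 higher (4.07%) and 523 lower (3.29%). The count for tazemetostat rested on a few libraries: it was 2895 and 174 without replicates 1 and 2 of tazemetostat, 262 and 763 without replicates 1 and 2 of Tat-Cocaine, 5865 without replicate 3 of Tat-Cocaine, and 22 without the second library of every group. For 4OI it was 592 without replicate 3 of 4OI and 715 and 680 without replicates 1 and 2 of Tat-Cocaine. The split of 647 higher and 523 lower with 4OI turned to 476 and 621 without replicate 2 of 4OI, to 322 and 393 without replicate 1 of Tat-Cocaine, to 374 and 732 without the second library of every group and to 127 and 258 at an absolute log2 fold change of at least 1. Where the columns were rescaled to a sum of 1000000, 36.5% and 35.2% of the calls were higher in place of 53.2% and 55.3%.

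Nrf2 targets were higher in 4 and lower in 1 of 22 with tazemetostat (median 0.17) and higher in 19 with 4OI (median 0.92). Interferon genes had 0 calls with tazemetostat (median 0.22) and 11 lower with 4OI (median -1.42). Chemokines were higher in 4 of 21 with tazemetostat (median 0.05, 11 of 21 positive), not far from the 15.2% of all genes. With 4OI 6 were lower (median -1.20), beside 3.29% of all genes. Phagocyte genes were higher in 11 of 17 with tazemetostat (median 1.10) and lower in 5 with 4OI (median -0.79). Neuronal markers were lower in 13 of 17 with tazemetostat (median -1.03) and had 0 calls with 4OI (median -0.28). Cell cycle genes were higher in 16 of 27 with tazemetostat (median 1.04) and had 0 calls with 4OI (median 0.20). Motile cilium genes were higher in 14 of 17 with tazemetostat (median 1.43) and in 2 with 4OI (median 1.04). Cholesterol synthesis genes were higher in 1 with tazemetostat and in 7 with 4OI. These counts by list were not refitted with libraries left out.

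Single genes stood in these comparisons as follows. Slc7a11 measured 49.4, 68.6 and 75 CPM in Tat-Cocaine cultures, and its log2 fold change was 0.32 with tazemetostat (FDR 0.434) and 2.5 with 4OI (FDR 5.71e-07). Cxcl13 gave 1.59 (FDR 0.0268) and -3.02 (FDR 0.000242), so it was above Tat-Cocaine with tazemetostat and below it with 4OI. Ptges gave 0.46 (FDR 0.556) and -3.3 (FDR 0.000146). Gpr84 gave 3.03 (FDR 0.0127) and 0.59 (FDR 0.739), and for tazemetostat the FDR was 0.0853, 0.0901 and 0.0691 without replicate 2 of tazemetostat or replicates 1 and 2 of Tat-Cocaine. F13a1, a macrophage transglutaminase, was at 21.8, 3.11 and 6.88 CPM in Tat-Cocaine cultures, 0.193, 0.255 and 0.517 CPM with tazemetostat and 0.281, 0.175 and 0.149 CPM with 4OI. It was lower with both (-3.37, FDR 0.0164, and -3.59, FDR 0.0231), and for 4OI the FDR was 0.0506, 0.0757 and 0.149 without replicates 2 and 3 of 4OI and replicate 1 of Tat-Cocaine. Il17rb, a cytokine receptor chain with part reads from overlapping features in 4 libraries, was at 37.3, 38.4 and 41.3 CPM with tazemetostat and 1.79, 3.07 and 36 CPM in Tat-Cocaine cultures (2.56, FDR 0.018; 0.076, 0.148 and 0.0965 without replicate 2 of tazemetostat and replicates 1 and 2 of Tat-Cocaine). The myelin genes Cldn11 and Mag gave -4.13 and -3.94 with tazemetostat (FDR 0.0203 and 0.0324), and FDR was 0.0565 to 0.169 without replicate 1 or 2 of tazemetostat or of Tat-Cocaine where these calls were lost.

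The same contrast was available in cultures that share no library with those above. In cultures with Tat and no cocaine 1544 genes were higher with tazemetostat (9.72%) and 1008 higher with 4OI (6.34%). Of the 2203 genes called higher with tazemetostat in Tat-Cocaine cultures, 1279 were also called in Tat cultures (58.1%, and 82.8% of the 1544), and of the 1674 higher with 4OI, 808 (48.3%, and 80.2% of the 1008). None had the opposite call, and 99.7% and 99.3% of the 2 sets had the same sign. Their medians were 0.79 and -0.60 in Tat-Cocaine and 0.62 and -0.45 in Tat cultures. Across 15890 genes, which are not independent, the log2 fold changes correlated at r = 0.923. The count for Tat cultures ranged from 542 (without replicate 2 of Tat-Tazemetostat) to 4141 (without its replicate 3), and was 1218 without the second library of every group and 246 in a fit to these 2 groups alone. A test of the difference between the contrasts with and without cocaine called 0 genes with limma at FDR 0.05, and 168 had an unadjusted p under 0.05.

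Nrf2 targets were lower in 17 of 22 in the Tat cultures too (median -0.88), interferon genes higher in 18 of 23 (median 1.54), myeloid markers higher in 11 of 13 (median 1.32) and cell cycle genes higher in 13 of 27 (median 1.17). Nqo1 gave -1.96 (FDR 1.89e-09), Cxcl13 3.8 (FDR 7.93e-06), Il1b 1.97 (FDR 0.00761) and Mki67 1.99 (FDR 0.00425).

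In cultures with neither Tat nor cocaine 143 genes were higher with tazemetostat (0.9%) and 330 higher with 4OI (2.08%). With the replicate number as a block 914 genes were called, and with columns rescaled to a sum of 1000000 the split was 231 and 236. The count was 223 without replicate 3 of 4OI. Of the Tat-Cocaine calls, 83 of 2203 were also higher with tazemetostat here (3.77%, and 58% of the 143) and 222 of 1674 higher with 4OI (13.3%, and 67.3% of the 330), with 2 and 3 of the opposite call. The same sign was seen in 86.2% and 87.5%, with medians of 0.23 and -0.19. The correlation across genes was 0.627. Nrf2 targets were lower in 16 of 22 (median -1.0) and cholesterol synthesis genes in 10 of 22, and interferon genes had 4 higher (median 1.36). Chemokines, Toll-like receptor genes and complement genes had 0 calls, with medians of 0.53, 0.49 and 0.84. Of them 18 of 21, 18 of 19 and 18 of 19 had a positive log2 fold change. The interaction given below called 1 of 21 chemokines and 0 Toll-like receptor, complement or interferon genes, so a loss of these differences without Tat was not shown for the lists. Nqo1 and Slc7a11 gave -2.43 and -3.62 (FDR 5.75e-12 and 1.62e-10), Cxcl13 0.0 (FDR 0.999) and Il1b -0.38 (FDR 0.841).

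**Figure D5:**
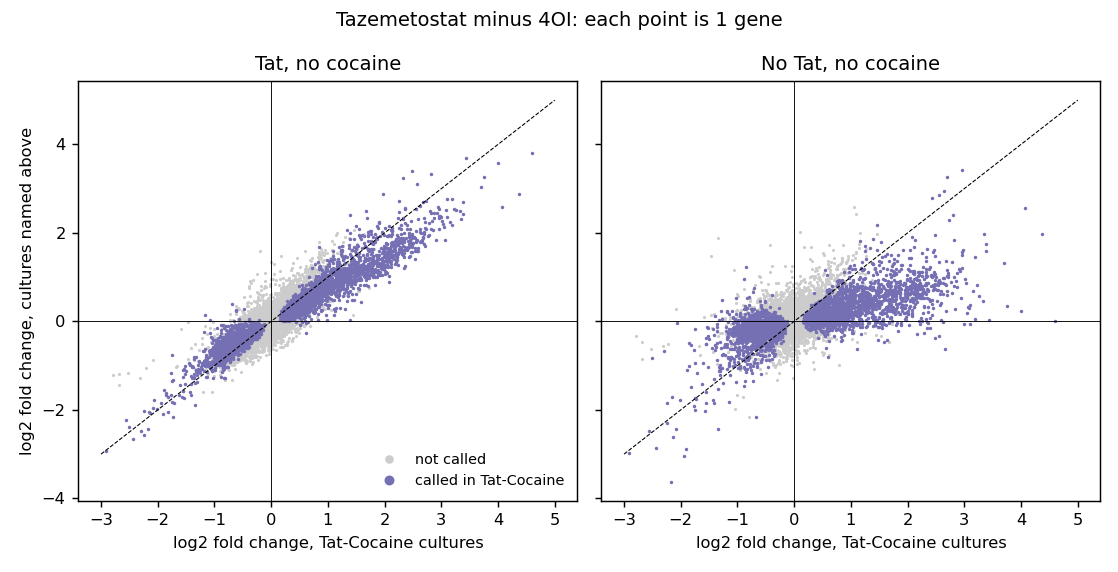
Log2 fold change of tazemetostat minus 4OI for each of 15890 genes in Tat-Cocaine cultures (horizontal) against cultures with Tat and no cocaine (left) and with neither (right); purple points are the 3877 genes called in Tat-Cocaine cultures and the dashed line marks equal values. Points lay along the line at left (r = 0.923) and spread flatter at right (r = 0.627).

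The difference between the contrast in Tat-Cocaine cultures and that in cultures with neither was tested as an interaction. It was called for 69 genes, with 47 positive (0.296%) and 22 negative (0.138%), and for 398 with the replicate number as a block. The count ranged from 11 (without replicate 2 of the Tazemetostat group) to 363 (without replicate 2 of Tat-Cocaine-4OI), and the split was 34 and 34 with columns rescaled to a sum of 1000000. Tat and cocaine both differ between these cultures, so this test alone does not separate their parts. The test given above, with and without cocaine in Tat cultures, called 0 genes. The interaction of Tat cultures against cultures with neither was not tested. Cxcl13 differed by 4.6 (SE 0.75, FDR 0.00163), Retn by 3.13 (FDR 3.03e-06) and Ptges by 3.42 (FDR 0.0371). Gclm differed by 1.1 (FDR 0.024), since its contrast was -3.05 without Tat and -1.95 with Tat and cocaine, so the excess with 4OI was smaller in the latter.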

How the data were processed

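RNA-seq libraries of rat cortical cultures (48 in 16 groups of 3) were analysed from the authors' table of normalised expression. Per the study's methods, directional libraries were sequenced from both ends, aligned with STAR and counted with featureCounts on uniquely mapped reads. The submitters' processing notes name STAR 2.7.2, SAMtools 1.5, Subread 1.5.3 and Trim Galore 0.4.5. The rat build in them (mRatBN7.2) differs from that of the methods (Rnor_6.0), and they also name hg38, a human build. The build of the counts was therefore not settled, and the only positions printed are those of the GRCr8 promoters. Whether counting used strand is not given in the sources used here, and antisense pairs may share reads. The signal the authors deposited is CPM scaled by TMM, with column sums of 1015000 to 1036800 in the 6 libraries. Of the low values 85.5 to 86% were whole reads within 0.02 read, so that tests on counts were not run. The columns of the authors' own group means and comparisons (fold changes, p-values and FDR) were not used, and 0 columns of single libraries lacked a sample.

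Values were analysed as log2(CPM + 0.5) and a gene was tested if 3 or more libraries reached 0.5 CPM. 1 mean per group was fitted to all 48 libraries with limma 3.58.1 in R 4.3.3 (lmFit, eBayes with a trend), and Benjamini-Hochberg FDR under 0.05 was the threshold. The fit was tested on simulated data. Intervals are at 95%. Promoters were searched and figures drawn with Python 3.11.15 and matplotlib 3.10.9. Libraries of a group differed by 5.83 to 96.3 in chi-square per degree of freedom, so no library was a copy of another. Same-numbered libraries of Tat-Cocaine-Tazemetostat and Tat-Cocaine-4OI deviated together from their group means in 3 of 3 pairs (correlation 0.227 to 0.658), as did those of the cultures with neither Tat nor cocaine (0.138 to 0.508), and this check is where the pairing comes from, since the labels give only a number. In Tat cultures 2 of 3 pairs did (0.0711 to 0.557), and against Tat-Cocaine 1 of 3 for either compound.

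Genes named were the 10 with the largest change in each direction (at least 5 CPM in the higher group, groups not overlapping), the called member of lowest p of each list in each direction, a fixed set of antioxidant, cytokine, receptor, Polycomb and marker genes, and the 5 of lowest p for the interaction and 3 for each compound against Tat-Cocaine. Not every gene that the rule gave is reported here. Further members of the lists were named as examples after their values were seen. The libraries compared, the gene lists and the tests were chosen with earlier results of these data known. Alternatives covered the pseudocount, the filter, 3 other scalings, the moderation, vooma weights, the replicate block, a fit to the groups compared alone and leaving out each library.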

Additional observations from a re-analysis of the deposited data

Results flagged for a closer look

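The difference between tazemetostat and 4OI in Tat-Cocaine cultures differed from that in cultures with neither Tat nor cocaine for 69 genes, by a limma test of the interaction, and the values of the genes named by it follow on the log2 scale. The difference was larger with Tat and cocaine for Cxcl13 (4.60, SE 0.75, FDR 0.00163), Ptges (3.42, FDR 0.0371), Retn (3.13, FDR 3.03e-06), Wnt6 (2.435, FDR 0.0195) and P2rx1 (1.615, FDR 0.0285). Apoe gave 1.06 (FDR 0.0478), LOC691143 2.27 (FDR 3.43e-06) and Lamtor3, a subunit of the Ragulator complex, 0.47 (FDR 0.00163). Gclm gave 1.10 (FDR 0.024), where the 4OI excess was smaller with Tat and cocaine. S100a4 gave -2.16 (FDR 0.00138), with a contrast of -0.43 (FDR 0.18) in Tat-Cocaine cultures and 1.72 (FDR 7.15e-06) without Tat, and its values held part reads in 6 of 6 libraries. Each value compares 12 libraries. The difference between contrasts with and without cocaine in Tat cultures called 0 genes, and that between Tat cultures and cultures with neither was not tested.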

How the results depend on the processing

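The count of genes between the compounds in Tat-Cocaine cultures stayed within 1.5 times of 3877 under the other pseudocounts, filters and scalings, with no trend, with vooma weights and with the replicate block (4862). It was 648 with the myeloid covariate, 2134 in a fit to the 2 groups alone and 1037 with an absolute log2 fold change of at least 1, and 1663 to 5764 as 1 library was left out. Quantile normalization gave 1929 higher and 2079 lower. For the same settings the Tat cultures gave 498, 246 and 789, and 1218 without the second library of every group (542 to 4141 as 1 library was left out). Cultures with neither gave 914 with the replicate block and 137 with the fold minimum (223 to 476). The difference between contrasts with and without cocaine gave 1 gene with no filter (0 to 0), and that with and without Tat and cocaine 398 with the replicate block, 44 in a fit to the groups alone, 108 without the second libraries and 42 with the fold minimum (11 to 363). Tazemetostat against Tat-Cocaine gave 81, 22 and 1219 with the covariate, without the second libraries and with the fold minimum (174 to 5865). 4OI against Tat-Cocaine gave 3749 with the covariate, 113 in a fit to the groups alone and 385 with the fold minimum (592 to 1097). Where libraries or groups were left out the fit had fewer samples, and otherwise the cause was not tested.

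Of 2117 values of named genes over the alternatives, 1951 kept direction and side of the threshold, 144 no longer passed, 6 newly passed and 16 changed sign. The sign changed with the covariate for Pde1a (0.18), Hk2 (-0.0317), Cacna1c (0.0517), Mki67 (-0.0935), Map2 (0.11), Il6 (-0.65), Ccl2 (-0.65), P2rx4 (-0.0586), Ezh2 (-0.19), Ezh1 (-0.33), Aif1 (-0.53) and Gpr84 (-1.12). Ezh1 also changed sign with quantile normalization (-0.0237) and ranged from -0.0808 to 0.12 as 1 library was left out, and Il6 from -0.25 to 0.67. Of 84 named genes called, 39 were called and 76 had the same sign with the covariate, and the replicate block changed no call of a named gene. Of 836 list counts 177 moved by over 1.5 times, 97 of them on leaving out 1 library and 39 with the covariate.

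Each group has 3 libraries, and genes under 0.5 CPM (8.58 to 10.7 reads) could not be compared. With 3 against 3 libraries, a single library moved the counts of calls by more than any scaling did. Cells were not counted, so numbers of cells and RNA per cell cannot be told apart. The compounds were each given at 1 concentration, and no vehicle group was analysed here.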
